A study of Rattus norvegicus with 11 samples.

Results

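The comparison described here set 2 arrays of deprived rat fibroblasts infected with an adenovirus expressing E2F1 (titled E2F1 Serum deprivation #1 and #2) against the 1 array of deprived cells infected with a control adenovirus (CMV Serum deprivation #1). The arrays were chosen by these titles and are 3 of the 11 in the series. The control side has 1 array, so each gene was also set against the range of the 4 CMV arrays from the other media, which makes 5 CMV arrays in all. The labels name no promoter, dose of virus or time after infection.

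All arrays carry RNA of REF52 cells, an established line of rat embryo fibroblasts. The cells were grown in medium with 10% serum and held in 0.25% serum for 48 hours before they were infected, so every group shares this deprivation. They then received E2F1 or control virus and were kept in deprivation medium, given serum, or given serum with LY294002, which inhibits phosphoinositide 3-kinase. Beside the 3 deprived arrays there were 2 arrays each of E2F1 cells in serum, E2F1 cells in serum with LY294002, CMV cells in serum and CMV cells in serum with LY294002. Nothing in the labels tells whether the arrays of one group had separate cultures behind them; the p-values then cover only array-to-array spread, and that could be technical.

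E2F1 is a transcription factor that, in resting cells, is held inactive by the retinoblastoma protein; growth factors release it through cyclin-dependent kinases, and it then drives genes of the G1/S transition and DNA synthesis. Fibroblasts without serum leave the cell cycle and rest in G0. E2F1 expressed by virus in such cells is known for pushing them towards S phase without growth factors, and also for its link to cell death. E2f1 itself is not named by any single-symbol probe set, so the level of the introduced gene was not analysed here.

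Signals were compared as log2(signal + 16), in which differences of dim probe sets are understated, and no fold is given where a compared array had a signal under 32. The model (limma, fitted to all 11 arrays with Benjamini-Hochberg adjustment over 15866 probe sets) takes the single deprived CMV array to vary like the groups of 2, and a probe set was called at an adjusted p under 0.05. An exact permutation of 2 arrays against 1 could not give a p below 0.333. The deprived E2F1 arrays correlated with each other at 0.984 over all probe sets and with the deprived CMV array at 0.943 and 0.949, as a description. The log2 difference between 3' and 5' probe sets of GAPDH and beta-actin, which grows as RNA degrades, was 0.556 and 0.510 on the deprived E2F1 arrays and 0.760 on the deprived CMV array, against 0.122 to 0.331 on the other CMV arrays. With this difference as a covariate 436 of the 456 calls given below were still made, among 965 in all. The slope of the covariate comes from differences within groups, the widest being 0.264 against 0.899 for E2F1 with LY294002. Whether the gap between the deprived groups bears on the calls was therefore not tested directly. Of 14 fibroblast markers, 8 had a signal over 500 on at least 1 deprived array, among them Vim, Fn1 and the collagens Col1a1, Col1a2 and Col3a1, whereas Dcn, Lum and Thy1 stayed under 200. The fibroblast markers summed to 83098 and 95076 on the deprived E2F1 arrays and to 113553 on the deprived CMV array, and 0 of 14 were called. Of 34 markers of other cell types, 21 were under 100 on all 3 arrays and 3 exceeded 500 on one of them (Krt7, Krt8 and Map2); 0 were called, and their sums were 5473 to 5931 with E2F1 and 6811 with CMV.

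In deprivation, E2F1 arrays had higher signals for genes of the G1/S transition, DNA replication, chromatin assembly and mitosis, and 0 genes of these lists were called lower. Only 0.73% of all named genes were called lower, so a count of 0 in lists of this size does not set them apart. In all, 456 of 15866 probe sets were called, or 2.87%. Of these, 348 were higher with E2F1 (2.19% of those tested), covering 291 named genes, and 108 were lower (0.681%), covering 89. By at least 2-fold on this scale 337 and 102 of them were higher and lower. At an unadjusted p under 0.05 there were 3298 probe sets, where 793.3 would be reached without any change. The median change over all probe sets was -0.136 on the log2 scale. The count rests on the deprived E2F1 pair. Without E2F1 array #1 limma called 0 probe sets (2272 at an unadjusted p under 0.05), and without #2 it also called 0 (2433). Leaving out either E2F1 array in serum left 121 calls and leaving out either CMV array in serum left 237, although neither group enters the comparison other than through the spread. These limits touch every call named below.

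Both deprived E2F1 arrays lay above all 5 CMV arrays in 325 of the 348 probe sets called higher (93.4%; these are 2.05% of all tested), and below all 5 in 70 of the 108 called lower (64.8%; 0.441% of all tested). Over all probe sets tested, 14.3% lay above and 18.6% below. The deprived CMV array itself was lower than the other 4 CMV arrays in 203 of the probe sets called higher (58.3%, against 22% of all tested). It was higher than those 4 in 96 of the probe sets called lower (88.9%, against 30%). These shares describe the arrays and were not tested.

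The 12 named genes with the largest rises, both E2F1 arrays above all CMV arrays, were Kif18b, Ccne2, Mki67, Spc24, Cbx2, Chaf1a, Cnnm4, Mxd3, Sbk1, Rbp2, Cyp26b1 and Rbmx. Kif18b, a kinesin of the mitotic spindle, had signals of 1693 and 1557 on the deprived E2F1 arrays, against 18.7 on the deprived CMV array and 15.1 to 397 on the other CMV arrays. It rose by 5.56 ± 0.96 on the log2 scale (SE of the fit, adjusted p = 0.0314). Both E2F1 arrays were several times above the brightest CMV array, which was an array in serum.

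Cyclin E, the partner of CDK2 at the G1/S boundary, rose in both its forms. Ccne2 had 2312 and 1981 with E2F1, against 39.2 on the deprived CMV array and 2.58 to 95.0 on the other CMV arrays, a log2 change of 5.29 ± 0.87 (adjusted p = 0.0297). Ccne1 had 2954 and 2611 with E2F1, against 321 on the deprived CMV array and 141 to 332 on the other CMV arrays. It was 8.30-fold higher (log2 3.05 ± 0.36, adjusted p = 0.0198). For both cyclins the E2F1 and CMV arrays did not overlap.

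Among 18 measured G1/S regulators 7 rose (38.9%) and 0 fell, with a list median of 0.907 against -0.124 over all named genes. Of those 10411 genes, by their brightest probe sets, 2.62% were called higher and 0.73% lower, and 4221 had changes above 0. Usp1, a deubiquitinase of the DNA damage response, had 1464 and 1386 with E2F1, against 119.6 on the deprived CMV array and 149 to 324 on the others. It was 10.6-fold higher (log2 3.41 ± 0.32, adjusted p = 0.0137), and a second Usp1 probe set was called too, at 2.79. Mybl2, a transcription factor of late G1, rose by 2.46 ± 0.42. Tfdp1, the dimerisation partner of E2F proteins, had 2504 and 2211 with E2F1 against 753 with CMV in deprivation and 756 to 1062 on the other CMV arrays, a rise of 1.62. E2f5 rose by 1.24, and Rb1, which encodes the retinoblastoma protein, by 1.01 at an adjusted p of 0.0499. The D-type cyclins and their kinases were not called. Ccnd1 had 2316 and 2573 with E2F1 and 4779 with CMV, below all 5 CMV arrays, at a log2 change of -0.96 ± 0.44 and an adjusted p of 0.267.

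**Figure D1:**
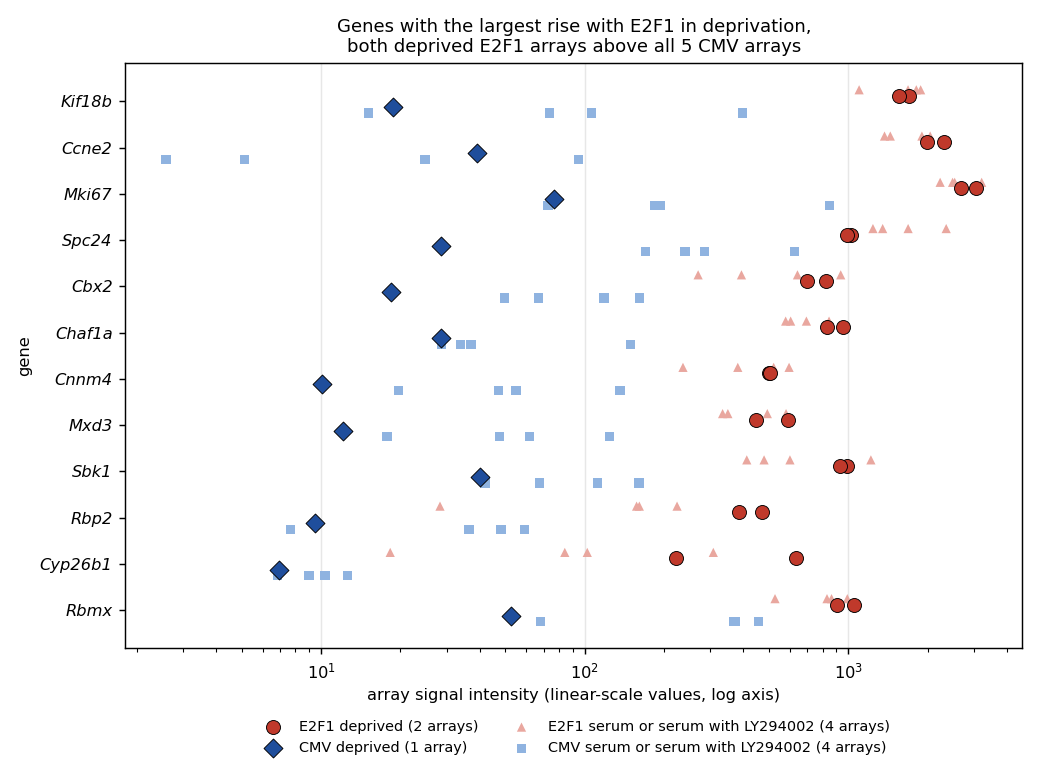
Array signals, on a log axis, of the 12 genes with the largest rises whose deprived E2F1 arrays both lie above all 5 CMV arrays. Each row is a gene: large red circles are the 2 deprived E2F1 arrays, the dark blue diamond is the deprived CMV array, and the small pale triangles and squares are the E2F1 and CMV arrays of the other media. For Ccne2 the deprived E2F1 arrays stand at 2312 and 1981 and the CMV arrays between 2.58 and 95.0; for Cyp26b1 the E2F1 pair is spread widely, at 631 and 223.

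For the genes of DNA replication, 11 of 22 measured polymerase and replication fork genes rose and 0 fell, and all 22 had a log2 change above 0 (median 1.41). Both E2F1 arrays were above all 5 CMV arrays for 18 of the 22. Pcna, the sliding clamp of the polymerases, had 6607 and 6656 with E2F1, against 1650 with CMV in deprivation and 1414 to 2540 on the other CMV arrays, a 3.99-fold rise (log2 2.00 ± 0.39, adjusted p = 0.043). Prim2, a primase subunit, rose by 3.33, and Rfc4, of the clamp loader, by 2.58. Pola1 and Fen1, a polymerase subunit and the flap endonuclease, rose by 1.98 and 1.83. Pold3, a subunit of polymerase delta, had 207 and 141 with E2F1 on its called probe set, against 17.6 with CMV in deprivation and 66.5 to 123 on the other CMV arrays (log2 2.48 ± 0.39, adjusted p = 0.0279). Its brighter probe set was not called, at 0.90 and an adjusted p of 0.134.

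Of 13 measured licensing genes, which load the replicative helicase at origins, 2 rose and 0 fell by their brightest probe sets, while 11 had changes above 0 (median 1.13). Mcm6, a helicase subunit, had 1191 and 1120 with E2F1, against 125 with CMV in deprivation and 155 to 554 on the other CMV arrays. It was 8.28-fold higher (log2 3.05 ± 0.53, adjusted p = 0.0314), with no overlap between the groups. Mcm4 rose by 2.50, and a probe set of Orc6, of the origin recognition complex, by 1.83, while the brightest Orc6 probe set was not called at 1.23. Mcm5, Mcm7 and Mcm3 had changes of 1.65, 1.49 and 1.13 and were not called.

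The 300 bases around the start of 4 of these genes are shown because their promoters held the letters of an E2F motif. The search covered 33 genes, those with the largest rises and all called G1/S, licensing and fork genes; 27 of them had a promoter in the RefSeq table (assembly GRCr8, 250 bases before to 50 after the gene's start), and 7 of these held a match. The letters searched were TTTCCCGC, TTTCGCGC, TTTGCCGC and TTTGGCGC on both strands, and the matched letters are in capitals; the rest is in lower case, 5′ to 3′ along the gene. Mcm6 lies on the minus strand at chr13:42404303-42404602 and has TTTGGCGC starting 139 bases before the gene's start, overlapped by GCGCGAAA, the reverse complement of TTTCGCGC, starting 135 bases before it. Usp1 lies on the plus strand at chr5:118702806-118703105 with TTTCGCGC starting 31 bases before the start. Pold3 lies on the minus strand at chr1:163868763-163869062 with TTTCCCGC 33 bases after the start, and Pola1 on the minus strand at chrX:62342306-62342605 with GCGCCAAA, the reverse complement of TTTGGCGC, starting 172 bases before it. The other genes with a match were Rpa2, Pole and Rb1.
Mcm6: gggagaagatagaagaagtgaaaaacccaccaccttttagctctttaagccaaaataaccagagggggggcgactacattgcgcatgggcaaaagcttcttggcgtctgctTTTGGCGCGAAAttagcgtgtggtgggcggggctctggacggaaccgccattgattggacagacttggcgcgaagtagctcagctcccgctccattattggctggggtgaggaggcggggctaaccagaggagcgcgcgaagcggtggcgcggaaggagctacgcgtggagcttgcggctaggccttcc
Usp1: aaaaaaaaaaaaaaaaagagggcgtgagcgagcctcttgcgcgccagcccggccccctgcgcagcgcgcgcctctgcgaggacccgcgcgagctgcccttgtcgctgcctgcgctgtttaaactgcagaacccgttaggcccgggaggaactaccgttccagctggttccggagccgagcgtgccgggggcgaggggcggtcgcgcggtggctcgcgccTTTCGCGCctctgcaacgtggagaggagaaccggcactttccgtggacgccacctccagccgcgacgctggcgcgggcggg
Pold3: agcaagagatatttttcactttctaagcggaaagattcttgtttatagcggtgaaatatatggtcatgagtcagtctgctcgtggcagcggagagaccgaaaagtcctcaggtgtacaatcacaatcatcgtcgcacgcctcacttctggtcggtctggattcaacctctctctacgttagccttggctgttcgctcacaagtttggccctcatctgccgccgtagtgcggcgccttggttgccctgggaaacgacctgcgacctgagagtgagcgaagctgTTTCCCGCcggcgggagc
Pola1: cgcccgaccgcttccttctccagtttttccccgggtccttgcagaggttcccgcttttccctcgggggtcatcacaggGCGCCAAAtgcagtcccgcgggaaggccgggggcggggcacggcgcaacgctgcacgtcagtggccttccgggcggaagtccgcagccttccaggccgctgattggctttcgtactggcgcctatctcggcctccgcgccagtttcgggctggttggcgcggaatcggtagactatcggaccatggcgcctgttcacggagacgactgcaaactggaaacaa
Among all 27457 genes with a promoter given there, 651 held at least 1 match (2.37%), and of 8610 genes with a single-symbol probe set on the array 316 did (3.67%). Among genes called higher with E2F1 above all 5 CMV arrays the share was 18 of 238 (7.56%), and among those called higher but not above the other 4 CMV arrays 1 of 13 (7.69%). Among genes called lower with E2F1 below all 5 it was 2 of 51 (3.92%), and among those called lower but not below the other 4 it was 0 of 22. The letters were most frequent in the licensing list, at 8 of 10 promoters, of which 6 held more than 1 match. They were found in 8 of 21 fork genes, 3 of 12 G1/S regulators, 4 of 16 chromatin assembly genes, 3 of 14 nucleotide synthesis genes, 5 of 18 repair genes, 2 of 31 mitosis genes, 1 of 22 pro-apoptotic genes and 0 of 39 matrix genes. The mitosis list, which had the highest median change, thus held them in 6.45% of its promoters, beside 3.67% for the array. A match describes letters in this window and shows no binding.

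Of 16 measured nucleotide synthesis genes 2 rose and 0 fell, and the median was 0.367. Tyms, thymidylate synthase, had 441 and 352 with E2F1 against 64.1 with CMV in deprivation and 72.6 to 156 on the other CMV arrays, and rose 5.12-fold (log2 2.35 ± 0.41, adjusted p = 0.0317). Rrm1, the large subunit of ribonucleotide reductase, rose 3.98-fold. Tk1, thymidine kinase, had 507 and 400.0 with E2F1 and 387 with CMV, both inside the span of the CMV arrays, and was not called (log2 0.21 ± 0.53, adjusted p = 0.861). Cad, Umps, Gart and Atic, for purine and pyrimidine synthesis, had log2 changes between -0.30 and 0.45 and were not called. Ppat and Dut of the same list had larger changes, 1.18 and 1.81, with both E2F1 arrays above all 5 CMV arrays. They were not called either (adjusted p = 0.0844 and 0.08).

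In the chromatin assembly list 6 of 18 genes rose and 0 fell (median 1.41). Besides histone chaperones it holds other chromatin and nuclear envelope genes, such as Eed and Lmnb1. Chaf1a, of the CAF-1 histone chaperone, had 954 and 828 with E2F1, against 28.6 with CMV in deprivation and 28.7 to 149.7 on the other CMV arrays (log2 4.34 ± 0.58, adjusted p = 0.0214). Asf1b, which hands histones H3 and H4 to CAF-1, rose 9.48-fold, and the histone chaperone Nasp 4.90-fold. Lmnb1, a lamin of the nuclear envelope, rose 6.55-fold. Of its other probe sets 1 was called, at 2.44, and 1 was not, at 0.81. Cbx2, a Polycomb protein outside this list, had 699.8 and 823 with E2F1, against 18.4 with CMV in deprivation and 49.7 to 162 on the other CMV arrays (log2 4.49 ± 0.55, adjusted p = 0.0211), and Eed, of the Polycomb complex that methylates histone H3, rose by 1.69.

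Mitosis had the highest median of the 21 lists described here, at 2.91, and 35 of its 35 measured genes had changes above 0. Of these, 14 were called higher (40.0%; the polymerase and fork list had 11 of 22) and 31 had both E2F1 arrays above all 5 CMV arrays. Mki67, the Ki-67 protein that marks cycling cells, had 3041 and 2686 with E2F1, against 76.7 with CMV in deprivation and 72.7 to 849.5 on the other CMV arrays. It was 31.0-fold higher (log2 4.95 ± 0.79, adjusted p = 0.0282). Spc24, of the kinetochore, had 1026 and 989 with E2F1, against 28.4 with CMV in deprivation and 171 to 624 on the others (log2 4.53 ± 0.58, adjusted p = 0.0211). Foxm1, a transcription factor of G2 and mitosis, rose by 3.84, Top2a, topoisomerase II alpha, by 3.55, and Cdk1, the mitotic kinase, by 2.95. The brightest CMV array for Kif18b, Mki67, Spc24, Foxm1, Top2a and Cdk1 was the same one, CMV in serum #2, at 871 for Top2a. Members that were not called include the checkpoint kinase Bub1b (log2 3.46 ± 0.80, adjusted p = 0.0639), whose E2F1 arrays still lay above every CMV array, and Cdc20 (log2 0.61 ± 0.51, adjusted p = 0.548), whose arrays overlapped. In bulk RNA, more cells in a phase and more RNA per cell cannot be told apart.

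Repair and checkpoint genes rose in 5 of 22 cases and fell in 0 (median 0.399). Ube2t, an E2 enzyme of the Fanconi anaemia pathway, had 696 and 736 with E2F1, against 74.4 with CMV in deprivation and 62.0 to 83.7 on the other CMV arrays, with 8.10-fold higher signals (log2 3.02 ± 0.26, adjusted p = 0.0137). Brca2, a gene of DNA break repair, had 236 and 297 with E2F1, against 18.8 with CMV in deprivation and 17.8 to 25.9 on the others (log2 3.01 ± 0.28, adjusted p = 0.0137). In both genes the 5 CMV arrays lay close together, far below both E2F1 arrays. Mdc1, a scaffold at DNA breaks, rose 5.24-fold.

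**Figure D2:**
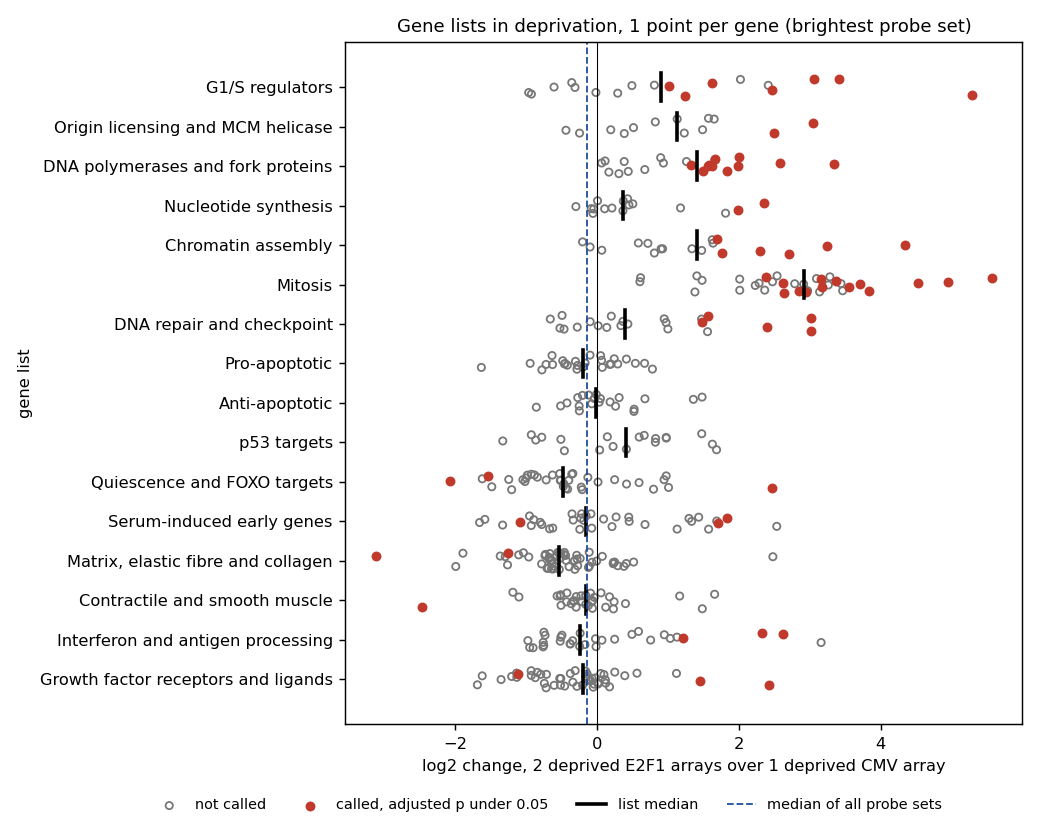
Log2 change in deprivation, E2F1 over CMV, for the measured genes of 16 of the 21 lists, 1 point per gene by its brightest probe set. Filled points were called, black bars are list medians and the dashed line is the median of all probe sets, -0.136. Mitosis stands at a median of 2.91 with all 35 genes above 0, while the matrix list has its median at -0.531 with 46 of 55 genes below 0. Over all named genes, 4221 of 10411 were above 0 and 6190 below.

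Other genes among the largest rises belong to no list. Mxd3, a Max-binding repressor, had 593 and 447 with E2F1, against 12.1 with CMV in deprivation and 17.8 to 124 on the other CMV arrays (log2 4.24 ± 0.45, adjusted p = 0.017). Rbp2, a cellular retinol-binding protein, had 472 and 385 with E2F1, against 9.45 with CMV in deprivation and 7.67 to 59.3 on the others (log2 4.12 ± 0.81, adjusted p = 0.0431). Cyp26b1, the enzyme that degrades retinoic acid, had 631 and 223 with E2F1 and 6.85 to 12.6 over all 5 CMV arrays (log2 4.10 ± 0.82, adjusted p = 0.0446). For Cyp26b1 the E2F1 pair was spread more widely than for the others, yet every CMV signal was near the bottom of the scale. Cnnm4, a magnesium transporter, had 500.3 and 504 with E2F1 and 10.1 with CMV in deprivation; the kinase Sbk1 had 989 and 934 against 40.0, while its second probe set was not called at 0.80. Their other CMV arrays reached 136 and 161, below both E2F1 arrays. Of the 291 genes called higher, 48 were members of the 7 proliferation lists above and 232 were in none of the 21 lists. Together the 21 lists cover only 555 of the 10411 named genes, so most genes of any kind are in none.

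Among 27 measured pro-apoptotic genes limma called 0 (5 at an unadjusted p under 0.05, median -0.2), and among 21 anti-apoptotic genes also 0 (5 at an unadjusted p under 0.05, median -0.0102). Since 2.62% of all named genes were called higher and 0.73% lower, lists of this size would hold at most about 1 call at the background share, and the count of 0 does not set them apart. Apaf1, the adaptor that activates caspase-9, had 412 and 335 with E2F1, 301 with CMV in deprivation and 244 to 391 on the other CMV arrays. The arrays overlapped, and the log2 change was 0.29 ± 0.31 (adjusted p = 0.648). Bnip3, a mitochondrial death protein, had 418 and 435 with E2F1, against 835 with CMV in deprivation and 635 to 780 on the others, a change of -0.94 ± 0.27 that was not called (adjusted p = 0.1). Bad, a BH3 protein, stood at 741 and 846 with E2F1 against 1369 with CMV, also below every CMV array and not called (log2 -0.78, adjusted p = 0.0905). On the anti-apoptotic side, Bag1 had a change of 1.36 (adjusted p = 0.0814) and the cochaperone Bag3 one of -0.86 (adjusted p = 0.0658).

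Targets of p53, a list as small, had 0 limma calls among 19 genes (10 at an unadjusted p under 0.05), at a median of 0.413, though 8 had both E2F1 arrays above all 5 CMV arrays. Mdm2, the ubiquitin ligase of p53, had 4683 and 4104 with E2F1, against 1354 with CMV in deprivation and 1795 to 2998 on the other CMV arrays (log2 1.68 ± 0.38, adjusted p = 0.0626). The phosphatase gene Ppm1d had 523 and 453 with E2F1, against 165 with CMV in deprivation and 148 to 185 on the others (log2 1.48 ± 0.31, adjusted p = 0.0517). Both lay above every CMV array and just missed the threshold. Cdkn1a, the CDK inhibitor p21, had 9638 and 11350 with E2F1 and 5898 with CMV, the other CMV arrays standing at 3518 to 6226 (log2 0.82 ± 0.28, adjusted p = 0.15).

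Of 37 measured quiescence genes and FOXO targets, 1 rose (2.7%) and 2 fell (5.41%), and the median was -0.477 against -0.124 over all named genes. With 2.62% of all named genes called higher and 0.73% called lower, so small a count says little about the list. The one that rose was Cdkn2c, the CDK4 and CDK6 inhibitor p18, with 3988 and 2614 with E2F1, against 572 with CMV in deprivation and 610.4 to 812 on the others (5.52-fold, log2 2.46 ± 0.37, adjusted p = 0.026). Pdk2, a kinase that switches off pyruvate dehydrogenase, fell to 79.03 and 106 with E2F1, against 439.7 with CMV in deprivation and 172 to 387 on the others (4.23-fold lower, log2 -2.08 ± 0.39, adjusted p = 0.0372), while a second Pdk2 probe set was not called at -0.56. Klf15, a transcription factor of fasting metabolism, had 69.2 and 64.7 with E2F1, against 224 with CMV in deprivation, but the other CMV arrays stood at 32.6 to 49.0, under both E2F1 arrays. Cdkn1b, the inhibitor p27, had 3056 and 3343 with E2F1 against 1835 with CMV in deprivation and was not called (log2 0.80 ± 0.53, adjusted p = 0.446). Irs2, the insulin receptor substrate, had 652 and 749 with E2F1 and 954 with CMV (log2 -0.44 ± 0.46, adjusted p = 0.640), with overlapping arrays.

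The list of early genes induced by serum had 2 of 35 called higher (5.71%) and 1 called lower (2.86%), with a median of -0.155. Over all named genes the shares were 2.62% and 0.73%, and counts this small say little about the list. Fosl1, a partner of Jun proteins, had 887 and 726 with E2F1, against 213 with CMV in deprivation and 465 to 646 on the other CMV arrays (3.57-fold, adjusted p = 0.0241). Il6, the cytokine interleukin-6, had 804 and 681 with E2F1, against 216 with CMV in deprivation and 102 to 181 on the others (3.26-fold, adjusted p = 0.0468). Both were above every CMV array, but Il6 was already at its highest CMV level in deprivation, while Fosl1 was at its lowest. Junb fell, with 1562 and 1512 with E2F1 against 3287 with CMV in deprivation, inside the 1240 to 2511 of the other CMV arrays (log2 -1.09, adjusted p = 0.0461). Fos had 1611 and 1064 with E2F1 and 3955 with CMV, at a change of -1.58 ± 1.03 (adjusted p = 0.431).

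In the list of AMP-activated protein kinase, the energy sensor, 2 of 16 genes rose (12.5%, against 2.62% of all named genes). Both encode its catalytic subunit. The list as a whole was balanced, with 8 changes above 0 and 8 below, from -2.38 to 2.56 (median -0.0201), and 0 genes were called lower. Prkaa2 had 241 and 160.3 with E2F1, against 20.04 with CMV in deprivation and 10.8 to 17.7 on the other CMV arrays (log2 2.56 ± 0.47, adjusted p = 0.0359). Prkaa1 had 1041 and 676 with E2F1, against 243 with CMV in deprivation and 247 to 454 on the others (3.31-fold, adjusted p = 0.0365). Neither gene overlapped any CMV array, and a second Prkaa1 probe set was not called at 0.74. Among interferon and antigen-processing genes 3 of 31 rose (9.68%, against 2.62% of all named genes) and 0 fell (median -0.239). They were Psmb9, a subunit of the immunoproteasome (6.15-fold), Tap1, a chain of the peptide transporter of class I presentation (5.01-fold, with a second probe set not called at 0.34), and the transcription factor Irf1 (2.31-fold).

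Of the amino acid stress list 1 of 31 rose by its brightest probe set, the cationic amino acid transporter Slc7a1 (3.43-fold), and 0 fell (median -0.00873). That share of 3.23% was near the 2.62% of all named genes called higher. Of the other Slc7a1 probe sets 1 was called, at 2.53, and 1 was not, at 0.63. A dimmer probe set of Pck2, the mitochondrial enzyme that makes phosphoenolpyruvate, was the largest fall with E2F1 below all 5 CMV arrays. It had 28.8 and 53.8 with E2F1, against 358 with CMV in deprivation and 191 to 527 on the other CMV arrays (log2 -2.74 ± 0.56, adjusted p = 0.0479), while the brightest Pck2 probe set was not called at -0.91. Sterol and fatty acid synthesis gave 0 limma calls among 32 genes (5 at an unadjusted p under 0.05, median -0.0646). Of 49 growth factor genes 2 rose (4.08%) and 1 fell (2.04%), with a median of -0.205. Over all named genes 2.62% were called higher and 0.73% lower, so these small counts say little about the sterol and growth factor lists. Fgfr2 rose by 2.43 on 1 probe set, whereas its other 4 probe sets had changes of 0.36, -0.61, -0.24 and -0.83 and were not called, so the gene's direction is uncertain. Inhbb, a subunit of activin, rose 2.73-fold, and Bmp4 had 1131 and 1323 with E2F1, against 2671 with CMV in deprivation and only 465 to 689 on the other CMV arrays.

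The 11 other genes with the largest falls below all 5 CMV arrays were mostly dim. Nmu, the peptide neuromedin U, had 16.1 and 17.9 with E2F1, against 166 with CMV in deprivation and 18.7 to 244 on the other CMV arrays (log2 -2.46 ± 0.48, adjusted p = 0.0416). Abcb6, a mitochondrial and membrane transporter, fell to 69.2 and 102 with E2F1, against 348 with CMV in deprivation and 153 to 245 on the others (3.63-fold lower, adjusted p = 0.038), and Atxn3, a deubiquitinase, fell 3.04-fold. Ggt5, Gabra3, Cracdl, Btbd8, Pld2, Icam2 and Kat6b had log2 changes between -2.06 and -1.88, with E2F1 signals of 6.22 to 31.0, near the offset. The other probe sets of Atxn3, Pld2, Icam2 and Kat6b were not called. In 41 of the 108 probe sets called lower an E2F1 array was under 32, and in 44 of the 348 called higher the CMV array was.

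Matrix genes gave 2 falls among 55 measured (3.64%, against 0.73% of all named genes) and 0 rises. Changes below 0 were found in 46 of them (median -0.531) and in 13 of the 14 fibroblast markers (median -0.662). Over all named genes 6190 of 10411 lay below 0, at a median of -0.124. Plod1, a lysyl hydroxylase that modifies collagen, had 859 and 1010 with E2F1, against 2246 with CMV in deprivation and 1093 to 1589 on the other CMV arrays (2.39-fold lower, log2 -1.26 ± 0.24, adjusted p = 0.0416). The E2F1 arrays were below every CMV array. Col1a1 and Fn1, the main collagen chain and fibronectin, had changes of -0.44 and -0.27 and were not called, and Pdgfrb, a receptor of mesenchymal cells, had -1.62 ± 0.71 (adjusted p = 0.245). Contractile genes gave 1 fall among 33 (3.03%, against 0.73% of all named genes), that of Acta1, and 0 rises (median -0.161). The E2F1 arrays of Acta1 and of Eln, the other matrix gene called lower, were not below all 5 CMV arrays. Such small counts say little about either list.

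Most falls leaned on the deprived CMV array, which was above the other 4 CMV arrays in 96 of the 108 probe sets called lower. Gabra3, named above, had 9.90 and 6.53 with E2F1, 78.9 with CMV in deprivation and 10.5 to 16.7 on the others. The fall of elastin stood on the deprived CMV array alone, since its E2F1 arrays were not below the other CMV arrays. Eln had 207 and 144.5 with E2F1 and 1624 with CMV in deprivation (8.67-fold lower, log2 -3.12 ± 0.54, adjusted p = 0.0314), but 70.7 to 139 on the other CMV arrays. Both E2F1 arrays were thus above the CMV arrays of the other media and far below the deprived one. Acta1, skeletal muscle actin, had 7.69 and 9.70 with E2F1, 120.4 with CMV in deprivation and 4.21 to 9.58 on the other CMV arrays (log2 -2.47 ± 0.24, adjusted p = 0.0158). Mlana, known as a melanocyte antigen, had 18.8 and 11.5 with E2F1, 198 with CMV in deprivation and 8.23 to 14.4 on the others (log2 -2.79 ± 0.29, adjusted p = 0.017). With 1 deprived CMV array, a level set by deprivation and a value of that single array cannot be told apart. Pi4kb, a phosphatidylinositol kinase, Maf, Tmem116, Pam and C1qc showed the same arrangement, with deprived CMV signals of 54.9 to 1110 above all other CMV arrays.

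On the other side, 23 of the probe sets called higher did not lie above all 5 CMV arrays. Nefh, a neurofilament subunit, had 885 and 937 with E2F1, 148 with CMV in deprivation and 1199 to 1884 on the other CMV arrays (5.63-fold, log2 2.49 ± 0.20, adjusted p = 0.0101, the smallest of the comparison). Its E2F1 arrays were therefore lower than every CMV array except the deprived one. Txndc11, a thioredoxin-domain protein, had 285 and 174 with E2F1, 25.01 with CMV in deprivation and 145 to 188 on the others. Ifitm10, Dvl2, Anp32e, Ehd4 and Ssx2ip also overlapped the other CMV arrays, and Enah, an actin regulator, had 1201 and 919 with E2F1, 377 with CMV in deprivation and 1244 to 1360 on the others; a second Enah probe set had -1.39 and was not called. Of all calls, 4 probe sets called higher lay below the other 4 CMV arrays, and 8 called lower lay above them.

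**Figure D3:**
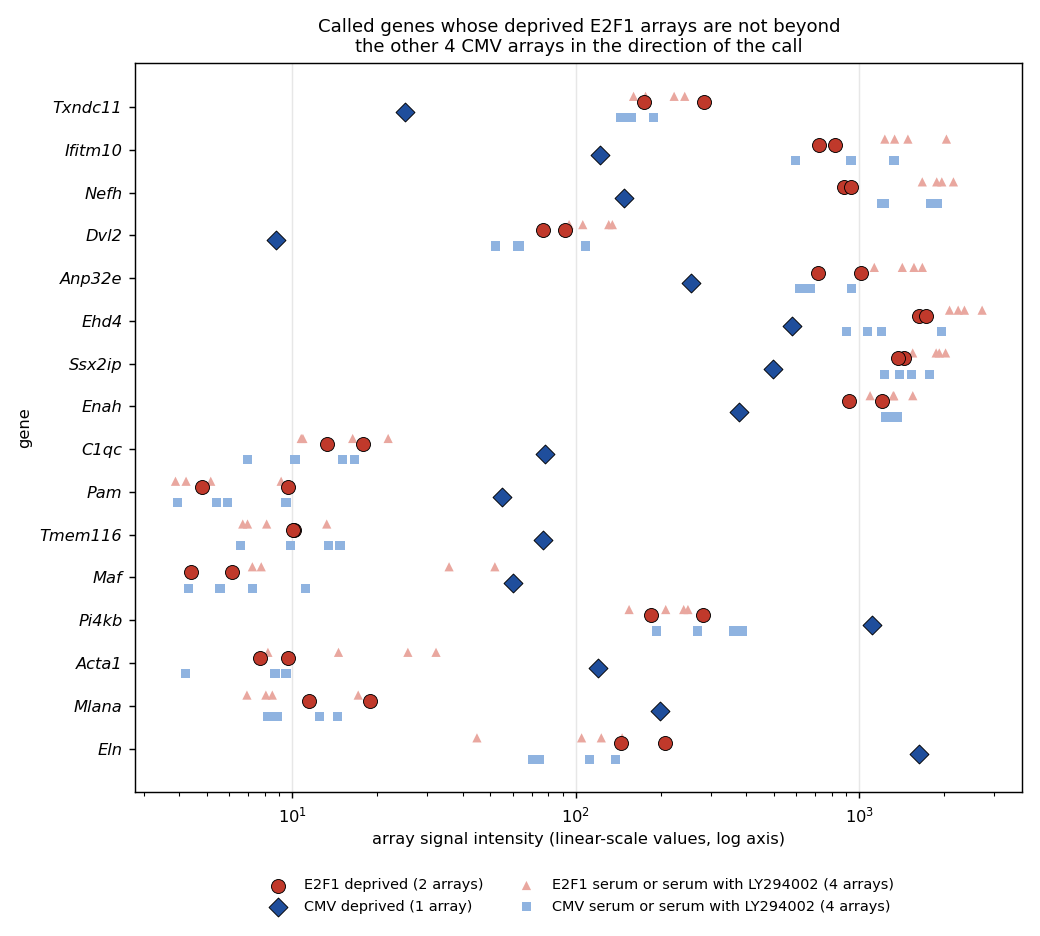
Array signals, on a log axis, of 16 called genes whose deprived E2F1 arrays are not beyond the other 4 CMV arrays in the direction of the call, with symbols as in the plot of the largest rises. The first 8 rows were called higher and the last 8 lower; in each row the dark diamond, the single deprived CMV array, stands apart from the CMV arrays of the other media, as for Eln at 1624 against 70.7 to 139.

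The comparisons of E2F1 with CMV in serum and in serum with LY294002 share no array with this one. They were tested in the same fit, however, with the same spread for each probe set. A low spread favours a call in each of them, so the calls are not independent. Of the 348 probe sets called higher in deprivation, 336 had a change above 0 in serum (96.6%, against 56.2% of all tested) and 333 with LY294002 (95.7%, against 46.0%). Their median log2 change was 1.70 in deprivation, where they were chosen, 0.943 in serum and 1.26 with LY294002. In the same direction 39 were also called in serum, where 0.29% of all probe sets were called higher, and 229 with LY294002, where 3.78% were. Of the 108 called lower, 76 were below 0 in serum (70.4%, against 43.8%) and 90 with LY294002 (83.3%, against 54.0%), at medians of -1.31 in deprivation, -0.249 in serum and -0.453 with LY294002. Of these, 1 was called lower in serum, where 0.063% of all probe sets were, and 17 with LY294002, where 1.63% were.

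Among the lower calls, the 70 beyond all 5 CMV arrays had medians of -0.523 in serum and -0.546 with LY294002, and the 38 that were not beyond them had -0.0183 and -0.121. The CMV arrays of those media entered both the split and these medians, so the split is a description. Among the probe sets called higher, 274 had all 6 E2F1 arrays of the series above all 5 CMV arrays (6.05% of all tested did), and among those called lower 43 had all 6 below (3.59%). Brca2 and Ube2t rose by 3.52 and 2.95 in serum and by 3.59 and 3.42 with LY294002, close to their changes in deprivation. Prkaa2 had 241 and 160.3 with E2F1 in deprivation, 13.2 and 12.9 with E2F1 in serum and 26.7 and 85.0 with E2F1 and LY294002. Its change in serum was 0.01 ± 0.38 and with LY294002 1.13 ± 0.38, and neither was called.

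None of these differences between media passed its own test. Of the E2F1 effect in deprivation minus that in serum, limma called 0 probe sets (1542 or 9.72% at an unadjusted p under 0.05, smallest adjusted p 0.122), and of deprivation minus LY294002 also 0 (1064 or 6.71%, smallest adjusted p 0.0796). For Prkaa2 the difference from serum was 2.56 ± 0.60 at an adjusted p of 0.348. For Eln it was -3.52 ± 0.70 (adjusted p = 0.269), and for Acta1 -2.73 ± 0.31 (adjusted p = 0.122). A gene called in deprivation and not in serum was therefore not shown to differ between them.

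**Figure D4:**
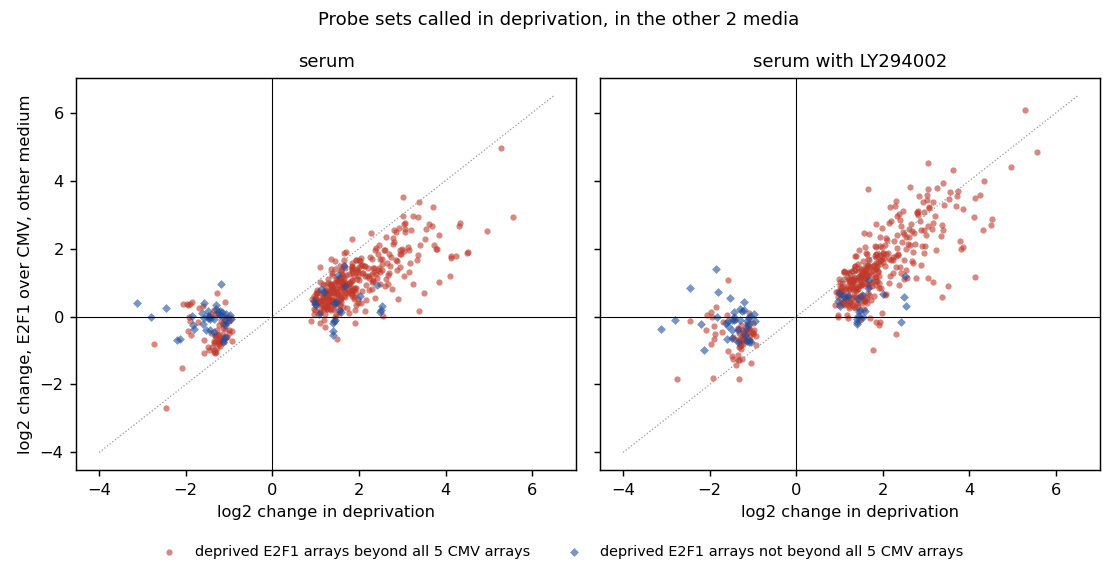
Log2 change of E2F1 over CMV in serum (left) and in serum with LY294002 (right), against the change in deprivation, for the 456 probe sets called in deprivation. Red circles have both deprived E2F1 arrays beyond all 5 CMV arrays and blue diamonds do not; the dotted line marks equal changes. Of those called higher, 336 lie above 0 in serum and 333 with LY294002, while the 38 lower calls not beyond all 5 CMV arrays have medians of -0.0183 in serum and -0.121 with LY294002.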

How the data were processed

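RNA was biotin-labelled from 6 µg of total RNA and hybridised to Affymetrix rat arrays, per the labels' protocols. The authors deposited linear signal intensities, with 1 value for each probe set and array. MAS5 and RMA are named, per the submitters' processing notes, but the role of each was not stated there, and their versions were not given in the sources used here. All arrays had a mean signal of 500 after trimming 2% of values from either end, and medians ran from 172 to 207, so arrays were not scaled further.

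Of 15923 probe sets, 57 controls were left out. In the platform annotation 12783 of those tested have 1 gene symbol (10411 genes), 312 several and 2771 none; 12748 were found in RefSeq (GRCr8) and 0 symbols changed. Only probe sets with 1 symbol are named. A mean per group was fitted to log2(signal + 16) with limma 3.58.1 in R 4.3.3 (lmFit, eBayes without trend), with 5 residual degrees of freedom, a prior of 2.88 and a prior variance of 0.0558; errors are standard errors of this fit. The steps were tested on simulated data. The 2 E2F1 arrays against 1 limit the precision, and depth in counts does not apply to intensities.

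The comparison, its members, the 21 gene lists and the tests were chosen with earlier results of these data known, and the lists are described by counts and medians without a test. A list takes each gene by its brightest probe set over all arrays; a named gene takes its brightest called one. Named were, for rises and falls alike, at most 12 genes by size of change among calls beyond all 5 CMV arrays, at most 8 among calls not beyond the other 4 in the direction of the change, and at most 4 called genes of a list (or, with no call, the 2 of smallest p), plus 12 genes given by name. Other list members were named after their values were seen. Of 75 named calls 22 had another probe set, 4 with one of the other sign (Fgfr2, Enah, Tmem116 and Icam2), 0 of them called. Alternatives are given in the closing section.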

Additional observations from a re-analysis of the deposited data

Results flagged for a closer look

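In 10 named genes every E2F1 array moved one way against the CMV arrays in deprivation and the opposite way in another medium, without overlap in either. The difference between media was tested in each case (limma, adjusted over all probe sets) and did not pass, with adjusted p-values of 0.0796 to 0.426. Maf, with a log2 change of -1.85 in deprivation, had 1.405 with LY294002, and Acta1, with -2.47 in deprivation, had 0.8358 with LY294002. The differences were -3.25 ± 0.33 for Maf and -3.30 ± 0.31 for Acta1, each at an adjusted p of 0.0796. Klf15 had -1.53 in deprivation and 0.5345 with LY294002. In serum, changes above 0 stood against falls in deprivation for Abcb6 (0.4205 against -1.86), Ggt5 (0.3786 against -2.06), Gabra3 (0.3694 against -1.97), Icam2 (0.36 against -1.89), C1qc (0.3892 against -1.58) and Atxn3 (0.3044 against -1.60). Fads1, a fatty acid desaturase, was the only one of these with a change above 0 in deprivation, at 0.64 and not called, against -0.3953 in serum and -0.4868 with LY294002. In each of these genes the deprived CMV array lay outside the range of the other 4 CMV arrays, above it in 9 genes and below it for Fads1; its part in the differences was not tested.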

How the results depend on the processing

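Counts moved with the settings. With the deprived CMV array as control, all 456 calls kept their sign in every alternative in which they were fitted, 400 of them after the dim filter. In some of these alternatives the log2 change is the same by construction, so no sign could turn there. They are the fits without an array of another medium, with the dimmest 30% left out, with trend and robust eBayes, or with the compared groups alone. Of 456 calls (348 higher, 108 lower, 395 beyond all 5 CMV arrays), an offset of 1 left 190 (155, 35 and 160) and one of 64 gave 807 (541, 266 and 676). Leaving out the dimmest 30% gave 774 (562, 212 and 665), trend and robust eBayes 697 (194 lower, 595 beyond), array weights 1223 (769, 454 and 967), and the 3' to 5' covariate 965 (631, 334 and 787). Centring on the median gave 67 lower; quantile normalization gave 516 in all. The compared groups alone gave 0 in every count (limma, 4474 at an unadjusted p under 0.05). Leaving out 1 array gave 0 to 662 calls, with 0 to 498 higher, 0 to 164 lower and 0 to 564 beyond, and 0 to 1 for the difference from serum; the extremes of all calls were without either deprived E2F1 array and without either E2F1 array with LY294002. The cause was not tested in these cases. A replicate block gave 131 calls (111, 20 and 115); deviations of same-numbered arrays correlated between -0.0223 and 0.301, not above 0.1 in every pair, so the numbers were not taken as pairs; the 0.301 is between the groups with LY294002, whose #2 arrays also had the higher 3' to 5' differences (0.899 with E2F1, 0.331 with CMV). With all 5 CMV arrays as control 1592 probe sets were called (982 higher, 610 lower); 315 of the 456 stayed called and 449 kept their sign. There Nefh turned to -0.06192, Bmp4 to 0.632, Klf15 to 0.07136, Fads1 to -0.3017, Cd248 to 0.7673 and Fos to 0.07741. Of 840 list counts 222 moved, and of 420 list medians 0 did. A median counted as moved only if it shifted by more than the median standard error of the list's genes. In the fits named above with the same log2 change by construction, it could not move. Dim signals near the offset limit the falls.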

Other observations

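Some genes outside the calls had deprived E2F1 arrays above all 5 CMV arrays by a wide margin; they were chosen after their values were seen. Tnc, the matrix protein tenascin C, had 1187 and 858 with E2F1, against 168 with CMV in deprivation and 29.2 to 155 on the other CMV arrays, in a list where 46 of 55 genes had changes below 0 (log2 2.48 ± 0.67, adjusted p = 0.0928). Nr4a3, an orphan nuclear receptor of the early genes, had 1502 and 1083 with E2F1 and 207 with CMV in deprivation (log2 2.53 ± 0.62, adjusted p = 0.0727). Pln, phospholamban, an inhibitor of the calcium pump of the sarcoplasmic reticulum, had 901 and 878 with E2F1 and 271 with CMV in deprivation, with the other CMV arrays at 26.2 to 48.9 (log2 1.66 ± 0.40, adjusted p = 0.0723). Gbp2, an interferon-induced GTPase, had 370.2 and 366 with E2F1 and 27.0 with CMV in deprivation (log2 3.16 ± 1.09, adjusted p = 0.158).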
